A study of Mus musculus with 12 samples.

Results

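The genes described here are 36 markers of macrophage identity, measured by RNA sequencing in cultures of mouse embryonic fibroblasts (MEFs), the connective tissue cells that grow out of a dissociated embryo. They are a fixed list of symbols of genes known from macrophages, drawn up with earlier results of these data known, and 36 of 36 were matched to Ensembl identifiers among the 37991 gene rows of each count table. All 36 passed the filter on low counts, as 15098 genes did in all, and all 36 also passed it when the double knockout libraries were left out. The study compared 4 genotypes, with 3 libraries each. WT is wild type. Ing1 KO and Gadd45a KO are the labels of the homozygous single mutants, Ing1-/- and Gadd45a-/-, and DKO is the label of embryos homozygous for both mutations. In all groups the fibroblasts were primary cells of C57BL/6N stock from male embryos at E15.5, a mid to late stage of gestation, undifferentiated and otherwise untreated, and were harvested at passage 4 and 80% confluency. ING1 is a reader of methylated histones, and GADD45A is a stress-induced protein that has been linked to DNA demethylation. Whether the 3 libraries of a label are separate embryos or repeats of 1 culture cannot be read from the labels, so p-values measure only the spread between these libraries, which may be technical.

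Macrophages are the resident phagocytes of tissues and engulf dying cells, microbes and debris. Their identity depends on the transcription factor PU.1, encoded by Spi1, and on signals through the receptor CSF1R, whose ligands CSF1 and IL-34 come largely from stromal cells. At the surface they carry receptors for antibodies, lipids and complement that signal through the adaptors TYROBP and FCER1G, and inside they hold a large lysosomal compartment. They are also a main source of complement C1q. Fibroblasts are not known for these products, while they do make CSF1.

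The 12 libraries held 31493168 to 42852059 counts in genes. The fibroblast label was met by the defining markers: 14 of 14 fibroblast genes were measured, their summed level lay between 59740 and 73000 CPM in every library, and Col1a1 alone lay between 18097 and 24363 CPM. CPM is a gene's count scaled to the library total after TMM scaling, a correction for composition. Ing1 stood at 52.1, 50.4 and 54.4 CPM in WT, at 49.7, 54.5 and 52.2 in the libraries labelled Gadd45a KO, at 1.01, 1.23 and 1.41 in Ing1 KO and at 1.29, 0.916 and 1.14 in DKO, so its counts followed the labels. Gadd45a stood at 20.9, 21.1 and 21.3 CPM in WT and 18, 20.5 and 16.7 in Ing1 KO, and was higher, at 75.9, 118 and 106 and 132, 119.8 and 127, in the libraries labelled Gadd45a KO and DKO. Gadd45a counts thus go against those 2 labels. Which exons the mutation removes was not found in the labels, and every direction below that names these groups rests on their labels.

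Summed over the 36 genes, the level was 435 CPM, 747 CPM and 712 CPM in the WT libraries and 631 CPM, 561 CPM and 995 CPM in Ing1 KO. It was 230.1 CPM, 868 CPM and 853 CPM in the libraries labelled Gadd45a KO, and 3969 CPM, 3304 CPM and 3309 CPM in DKO. The 3 DKO libraries lay far above the other 9, and the other 3 groups overlapped one another. The group means were 631 ± 171 CPM in WT, 729 ± 233 in Ing1 KO, 650.3 ± 364 in the group labelled Gadd45a KO and 3527 ± 383 in DKO (SD, n = 3 each), so the DKO mean was 5.59-fold of the WT mean. As a share of the TMM-scaled library total, the 36 genes together took 0.0230% in the lowest library and 0.397% in the highest. In bulk RNA a larger number of macrophages and more of these RNAs per cell cannot be told apart, and this holds for every level below.

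**Figure D1:**
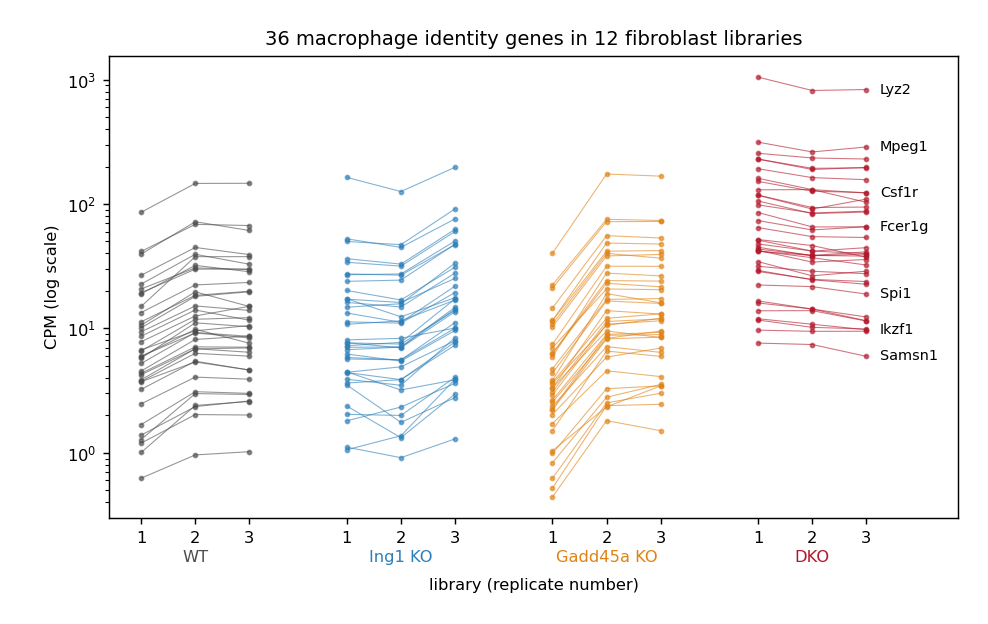
Level of each of the 36 genes in each of the 12 libraries, in CPM on a log axis, with libraries by replicate number within each genotype label on the x axis; thin lines join the values of 1 gene within a group and imply no order. The bundle of 36 sits higher in all 3 DKO libraries, and dips as a whole in the first WT library and the first library labelled Gadd45a KO.

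Every one of the 36 genes was higher in all 3 DKO libraries than in any of the other 9 libraries; among all 15098 genes tested this held for 11.7%. In edgeR's quasi-likelihood test with Benjamini-Hochberg adjustment, 36 of 36 were called higher in DKO than in WT at an adjusted p under 0.05, against 15.6% of all genes. None of the 36 was called lower, against 10.3% of all genes. The median log2 fold change of the 36 was 2.38, with a range from 1.98 (Coro1a) to 3.02 (Clec4d), which is 3.94-fold to 8.14-fold, and the median of all genes tested was 0.01. Adjusted p in edgeR ran from 0.000208 (Samsn1) to 0.0197 (Aif1). Without the first WT library, which had the lowest WT value for each of the 36 genes, 34 of 36 were still called higher. Aif1 and Msr1 then stood at a log2 fold change of 1.68 each and no longer passed. The same 2 genes lost their call without the first DKO library, and Msr1 alone without the second DKO library.

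The same DKO libraries set against Ing1 KO gave 36 of 36 called higher and 0 called lower, with a median log2 fold change of 2.22 (1.79 to 2.66); of all genes, 14.9% were called higher and 9.88% lower. Against the group labelled Gadd45a KO they again gave 36 of 36 called higher and 0 lower, with a median of 2.37 (1.87 to 2.98), where 15.8% of all genes were called higher and 10.6% lower. These 3 comparisons share the DKO libraries, so they are not independent of one another. Leaving out the second Ing1 KO library lowered the count against Ing1 KO to 29 of 36, with Ly86, Cybb, Cx3cr1, Coro1a, Laptm5, Ctss and Aif1 no longer called. Cybb lost its call without the first Ing1 KO library, and against the group labelled Gadd45a KO the call of Aif1 was lost without the first or the second library of that group.

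None of the 36 genes was called between either single mutant group and WT. In Ing1 KO against WT, edgeR called 0 of 36 higher and 0 lower, where 12.1% of all genes were called higher and 11.4% lower. The median log2 fold change was 0.25, with 29 genes above 0 and 7 below, from -0.62 (Msr1) to 0.62 (Clec4d). Adjusted p ran from 0.373 to 0.988 in edgeR, 0 of 36 had an unadjusted p under 0.05, and DESeq2 also called 0 of 36. Between the group labelled Gadd45a KO and WT, edgeR again called 0 of 36 in either direction, with a median of 0.09 and a range from -0.35 (Msr1) to 0.54 (Samsn1). Here 0.00662% of all genes were called higher, which is 1 gene, Gadd45a itself, and 0% lower, while 1331 of 15098 genes had an unadjusted p under 0.05. No member was among those 1331, and DESeq2 called 0 of 36. With the replicate number as a block in a fit of these 2 groups alone, 6 genes were called higher and 7 lower in all, and still 0 of the 36. The spread within these groups was wide (the highest library held 1.72, 1.77 and 3.77 times the summed level of the lowest in WT, Ing1 KO and the group labelled Gadd45a KO), so smaller differences may have gone undetected.

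The interaction term asks whether the DKO change departs from the sum of the 2 single mutant changes on the log scale. It was above 0 for 36 of 36 genes, with a median of 2.14 (1.68 to 2.98), where the median of all genes was 0.01. edgeR called 20 of 36 higher and 0 lower, against 10.4% and 7.4% of all genes, and the other 16 had adjusted p between 0.0542 and 0.0923. That count of 20 hung on single libraries. It was 0 without the second WT library, 0 without the second Ing1 KO library and 1 without the third WT library. It was 5, 5 and 7 without the first, the second and the third DKO library, 6 without the first Ing1 KO library, and 12 and 11 without the second or the third library labelled Gadd45a KO. Without the first library of that label it was 29. DESeq2 called 35 of 36, and edgeR with no filter on low counts 6.

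**Figure D2:**
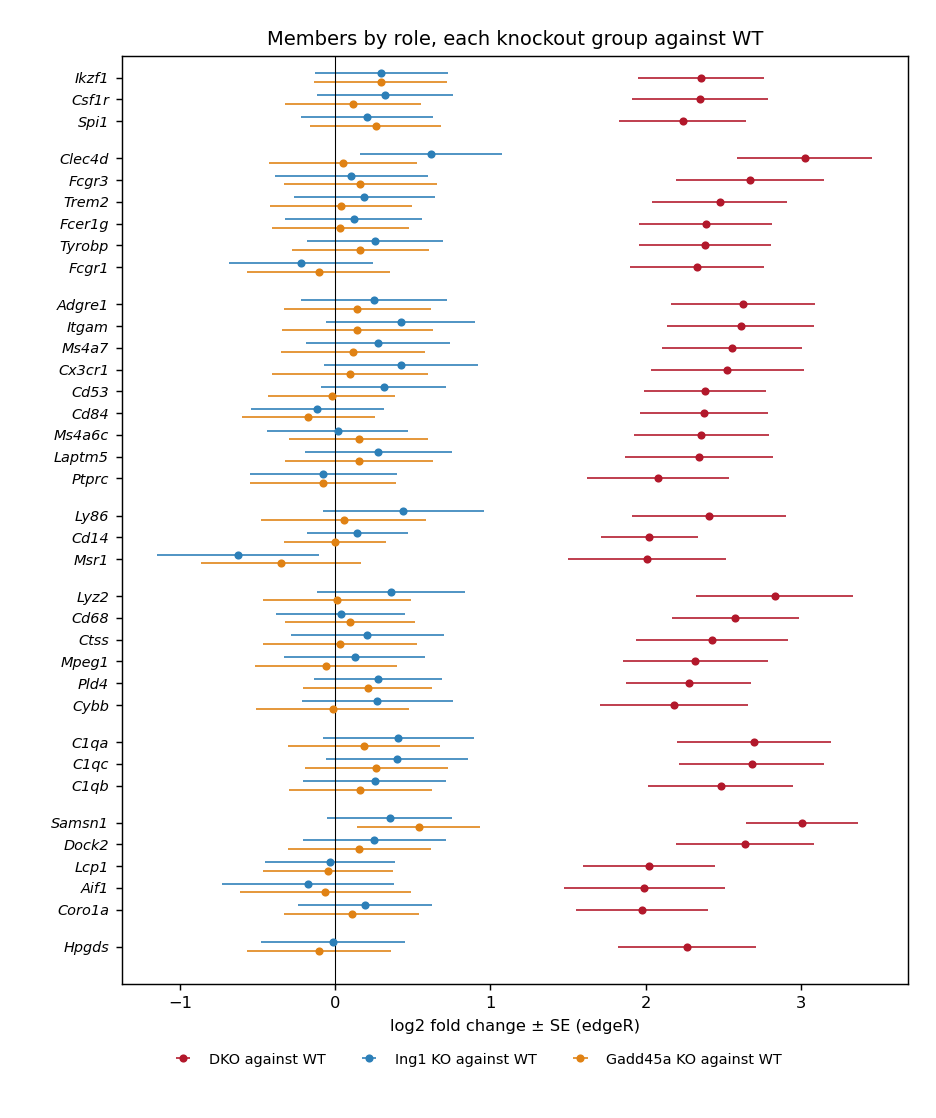
log2 fold change against WT of each of the 36 genes, grouped by role from top to bottom as in the text, with DKO in red, Ing1 KO in blue and the group labelled Gadd45a KO in orange; points are edgeR estimates and bars are 1 standard error. All red points lie between 1.98 and 3.02, and the blue and orange points lie on both sides of 0, between -0.62 and 0.62.

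PU.1 binds DNA with a purine-rich core. The promoters of the 36 genes were searched for the letters GAGGAA and for the longer form GAGGAAGT, which contains the shorter one. The RefSeq promoter table (GRCm38.p6, from 250 bases before to 50 bases after each gene's start) held 29 of the 36 genes; Spi1, Csf1r, Adgre1, Cd14, Tyrobp, C1qa and Msr1 were not matched. GAGGAA on either strand was present in 20 of these 29 genes (69.0%) and in 31.25% of the 27025 genes of the table. GAGGAAGT was present in 6 of 29 (Cd53, Pld4, C1qc, Ctss, Hpgds and Samsn1, 20.7%) and in 3.69% of the table's genes. A match is a string of letters and not a measured binding site. These shares describe a list chosen as macrophage genes and use no level from the libraries. Any part of the motif in the DKO change was not tested. The next lines give the 100 bases before the start site of 6 genes with a match close to the start, picked after the matches were known so that receptor, surface, complement, signalling and enzyme genes each appear. Capitals mark GAGGAA, or TTCCTC where the match is on the other strand.
Trem2 (chr17:48346301-48346400, plus strand): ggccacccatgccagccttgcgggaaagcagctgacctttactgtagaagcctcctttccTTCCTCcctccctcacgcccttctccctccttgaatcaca
Itgam (chr7:128062540-128062639, plus strand): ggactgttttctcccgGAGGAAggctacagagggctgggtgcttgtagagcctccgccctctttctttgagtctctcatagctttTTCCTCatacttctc
Laptm5 (chr4:130913216-130913315, plus strand): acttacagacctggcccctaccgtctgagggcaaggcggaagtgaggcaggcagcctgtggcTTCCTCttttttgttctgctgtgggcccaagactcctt
C1qb (chr4:136886201-136886300, minus strand): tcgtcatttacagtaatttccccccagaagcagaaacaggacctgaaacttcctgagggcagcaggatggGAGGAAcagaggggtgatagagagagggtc
Samsn1 (chr16:75909267-75909366, minus strand): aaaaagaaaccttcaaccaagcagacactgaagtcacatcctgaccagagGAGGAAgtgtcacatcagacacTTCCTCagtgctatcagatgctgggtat
Hpgds (chr6:65144731-65144830, minus strand): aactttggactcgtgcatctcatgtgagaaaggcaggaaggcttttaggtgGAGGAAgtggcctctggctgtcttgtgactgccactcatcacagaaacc
Itgam and Samsn1 carry 2 matches each in these 100 bases, and in Samsn1 and Hpgds the capitals on the strand shown run on into the longer form. In Trem2, Laptm5, C1qb and Hpgds there is 1 match.

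Among the lineage genes, Spi1 (ENSMUSG00000002111, chromosome 2) encodes PU.1, Ikzf1 the lymphoid and myeloid factor Ikaros, and Csf1r the receptor on which macrophage survival depends. Spi1 was at 3.24, 5.45 and 4.63 CPM in the WT libraries, 3.64, 3.88 and 7.79 in Ing1 KO, 2.37, 7.14 and 6.42 in the libraries labelled Gadd45a KO and 22.3, 21.7 and 18.9 in DKO. All 3 DKO values lay above the highest of the other libraries, the third Ing1 KO library. The log2 fold change of Spi1 in DKO against WT was 2.24 ± 0.41 (SE), with an adjusted p of 0.0038 in edgeR. Ikzf1 was at 1.39, 2.35 and 2.62 CPM in WT, 1.81, 2.34 and 3.62 in Ing1 KO, 0.989, 3.28 and 3.45 in the libraries labelled Gadd45a KO and 12, 10.8 and 9.76 in DKO, a log2 fold change of 2.36 ± 0.41 against WT. For Csf1r, whose exons overlap those of Hmgxb3 on the other strand, the values were 20.8, 30.7 and 29.7 CPM in WT, 27.4, 26.8 and 47.1 in Ing1 KO, 10.9, 40.1 and 36.7 under the Gadd45a KO label and 161, 130.4 and 122 in DKO. Its log2 fold change was 2.35 ± 0.44. In all 3 genes the groups other than DKO overlapped, with the first library labelled Gadd45a KO lowest of the 12. The interaction term was positive but not called in any of the 3 (1.77 to 1.91, adjusted p 0.0614 to 0.0643 in edgeR).

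Receptors that activate macrophages, and the adaptors they signal through, made up 6 genes, all called higher in DKO against WT with a median log2 fold change of 2.43. Fcer1g, the common gamma chain of Fc receptors, stood at 9.39, 15.2 and 14 CPM in WT and 11.3, 11 and 19.4 in Ing1 KO. It stood at 4.74, 17.1 and 17.4 CPM in the libraries labelled Gadd45a KO and 73.6, 61.8 and 65.7 in DKO. DKO was therefore separate from the rest, with a log2 fold change of 2.39 ± 0.43 against WT (edgeR adjusted p = 0.00396). Tyrobp (DAP12), the adaptor of TREM2, rose by a log2 fold change of 2.38 ± 0.43 and Trem2, a receptor for lipids and apolipoproteins, by 2.48 ± 0.44. Fcgr3, a low-affinity receptor for IgG, was at 5.77, 11.1 and 10.3 CPM in WT, 7.65, 7.49 and 14 in Ing1 KO, 3.31, 13.9 and 13 under the Gadd45a KO label and 64.6, 54.6 and 53.8 in DKO. Its log2 fold change was 2.67 ± 0.48 and that of Fcgr1, the high-affinity receptor, 2.33 ± 0.43. Reads of the Fcgr family that match similar copies may be missing from the gene counts, so these 2 values are less certain. Clec4d, a C-type lectin that pairs with FCER1G, had the largest fold of the 36. It was at 1.20, 2.03 and 2.01 CPM in WT, 3.51, 1.76 and 2.78 in Ing1 KO, 0.521, 2.40 and 2.46 in the libraries labelled Gadd45a KO and 16, 14.3 and 12.4 in DKO, or 3.02 ± 0.43 on the log2 scale in DKO against WT (edgeR adjusted p = 0.00104). Unlike most of the genes, Clec4d was highest in the first and not the third of the Ing1 KO libraries. The interaction was called for 5 of these 6 genes, all but Tyrobp.

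Surface and membrane proteins were the largest role group, with 9 of 9 genes higher in DKO than in WT and a median log2 fold change of 2.38. Adgre1 encodes F4/80, the classical mouse macrophage antigen. Its levels were 11.3, 18.4 and 19.9 CPM in WT, 16.2, 14.9 and 27.8 in Ing1 KO, 6.33, 24.2 and 24 in the libraries labelled Gadd45a KO and 118, 93.6 and 94.5 in DKO. The DKO libraries stood clear of the other 9, by 2.63 ± 0.46 on the log2 scale against WT. Laptm5, a lysosomal membrane protein of blood cells, was at 19.4, 29.9 and 29.98 CPM in WT, 23.9, 24.4 and 47.6 in Ing1 KO, 10.3, 38.2 and 39.3 under the Gadd45a KO label and 152, 127 and 123 in DKO, a log2 fold change of 2.34 ± 0.47. Cd84, an adhesion receptor of the SLAM family, was at 5.23, 9.28 and 8.63 CPM in WT, 6.23, 5.47 and 9.64 in Ing1 KO, 2.55, 8.32 and 9.53 under the Gadd45a KO label and 43.4, 38.6 and 38.1 in DKO. It had the smallest adjusted p of the 36 in the interaction (0.0187 in edgeR, log2 2.66 ± 0.59). The other 6 rose over a narrow range. Ptprc, the pan-leukocyte antigen CD45, was lowest among them at a log2 fold change of 2.08. Ms4a6c, one of a family of close copies, was at 2.36, the tetraspanin Cd53 at 2.38, the fractalkine receptor Cx3cr1 at 2.53, Ms4a7 at 2.56 and the integrin chain Itgam (CD11b) at 2.61. Cx3cr1, Ms4a6c and Itgam share exon sequence with another annotated gene, and for them the counting may not separate the 2.

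Pattern recognition and scavenger receptors were 3 genes with a median log2 fold change of 2.02 in DKO against WT. Cd14, the lipopolysaccharide co-receptor, stood at 2.48, 4.06 and 3.91 CPM in WT, 4.47, 3.20 and 3.86 in Ing1 KO, 1.72, 4.56 and 4.10 in the libraries labelled Gadd45a KO and 16.6, 14.3 and 11.5 in DKO. DKO stood apart from the rest, by a log2 fold change of 2.02 ± 0.31 against WT with the smallest SE of the 36 (edgeR adjusted p = 0.00123). Ly86 (MD-1), which pairs with the receptor CD180, went from 1.01, 2.41 and 2.59 CPM in WT to 11.7, 10.2 and 9.89 in DKO, with 2.04, 2.00 and 4.05 in Ing1 KO and 0.625, 2.52 and 3.01 under the Gadd45a KO label. Its log2 fold change was 2.41 ± 0.50. Msr1, the class A scavenger receptor, behaved apart from the rest in the single mutants. It was at 15, 37.7 and 37.7 CPM in WT, 17.2, 16.2 and 25.2 in Ing1 KO, 7.44, 31.6 and 31.5 in the libraries labelled Gadd45a KO and 130.1, 130.4 and 103 in DKO. The second and the third WT libraries were above all 3 Ing1 KO libraries, but the first WT library was below them, and the difference did not pass the test (-0.62 ± 0.52, edgeR adjusted p = 0.433). DKO remained above all other libraries, at 2.01 ± 0.51 against WT. Msr1 also had the largest interaction term of the 36, 2.98 ± 0.73. Its negative changes in both single mutant groups, neither of them called, enter that term and raise it.

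Lysosomal and killing proteins gave the most abundant RNA of the list. Lyz2 (ENSMUSG00000069516, chromosome 10), lysozyme of macrophages, was at 85.8, 146 and 147 CPM in WT, 163, 126 and 197 in Ing1 KO, 40.2, 174 and 167 in the libraries labelled Gadd45a KO and 1045, 816 and 831 in DKO. The lowest DKO library thus stood well above the highest other library, and the log2 fold change against WT was 2.83 ± 0.50 (edgeR adjusted p = 0.00379). Lyz1 is a near-identical copy, so the level of Lyz2 is uncertain by whatever reads map to both. Mpeg1, the pore-forming perforin-2, was at 39.5, 72 and 61.2 CPM in WT, 49.97, 47.1 and 91.3 in Ing1 KO, 21.1, 72.1 and 72.3 under the Gadd45a KO label and 314, 262 and 287 in DKO, with a log2 fold change of 2.32 ± 0.47. Cd68, a lysosomal glycoprotein used as a macrophage stain, was at 10.6, 19.7 and 15 CPM in WT, 13.3, 11.2 and 21.9 in Ing1 KO, 7.00, 20.8 and 20.5 under the Gadd45a KO label and 98.3, 84.6 and 87.6 in DKO. Its DKO libraries did not overlap the others, and its log2 fold change was 2.58 ± 0.41. The protease cathepsin S (Ctss) rose by 2.43, the endolysosomal exonuclease Pld4 by 2.28 and Cybb, the catalytic chain of the phagocyte oxidase, by 2.18 on the log2 scale. All 6 of 6 were called against WT, and 3 of 6 (Lyz2, Cd68 and Mpeg1) in the interaction.

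The 3 chains of complement C1q, the initiator of the classical pathway, lie together on chromosome 4 and their RNAs moved as a set. C1qa (ENSMUSG00000036887) was at 22.7, 39.4 and 32.8 CPM in WT, 34, 31.7 and 60.1 in Ing1 KO, 11.6, 48.5 and 47.6 in the libraries labelled Gadd45a KO and 229, 189 and 197 in DKO. C1qb (ENSMUSG00000036905) was at 26.7, 44.7 and 39.2 CPM in WT, 36.3, 32.9 and 62.7 in Ing1 KO, 14.6, 55.7 and 53.3 under the Gadd45a KO label and 229, 193 and 195 in DKO. C1qc (ENSMUSG00000036896) was at 19, 32.1 and 28.5 CPM in WT, 27, 27.4 and 50.4 in Ing1 KO, 11.6, 41.8 and 42.2 under the Gadd45a KO label and 192, 163 and 157 in DKO. In each chain all DKO libraries exceeded all others, with log2 fold changes of 2.70 ± 0.50, 2.48 ± 0.47 and 2.68 ± 0.47 against WT. The proportions between the chains hardly moved. Per kilobase of exon, C1qa made up 36.5% to 42.1% of the summed level of the 3 chains over the 12 libraries, C1qb 39.7% to 43.9% and C1qc 17.4% to 19.6%. In the interaction 0 of 3 were called (adjusted p 0.058 to 0.064 in edgeR), although 3 of 3 had an unadjusted p under 0.05, and DESeq2 called 3 of 3.

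Leukocyte actin and signalling proteins held both the weakest and one of the strongest changes. Lcp1 (L-plastin), which bundles actin, was at 41.5, 68.6 and 67.1 CPM in WT, 52.5, 44.8 and 76 in Ing1 KO, 22.4, 75.3 and 73.6 in the libraries labelled Gadd45a KO and 255, 234 and 229.7 in DKO, a log2 fold change of 2.02 ± 0.42. Coro1a, an actin-binding coronin of leukocytes, was at 8.65, 14.1 and 11.6 CPM in WT, 10.8, 11.5 and 16.9 in Ing1 KO, 4.37, 16.6 and 15.9 under the Gadd45a KO label and 51.8, 46.3 and 37.3 in DKO. It had the smallest log2 fold change of the 36, 1.98 ± 0.43, and its exons overlap Bola2 on the other strand, as those of Lcp1 overlap Gm15628 and Gm15629. Aif1 (IBA1), a calcium-binding protein used to stain microglia and macrophages, was at 1.28, 2.99 and 2.95 CPM in WT, 1.06, 1.37 and 3.91 in Ing1 KO, 1.04, 2.35 and 3.45 under the Gadd45a KO label and 9.69, 9.48 and 9.49 in DKO. Its DKO libraries were nearly level while the other groups spread widely, and it had the highest adjusted p of the 36 (0.0197 in edgeR). Samsn1, an adaptor that restrains B cell activation, was the least abundant gene of the list, at 0.626, 0.962 and 1.02 CPM in WT, 1.11, 0.915 and 1.29 in Ing1 KO, 0.443, 1.82 and 1.51 under the Gadd45a KO label and 7.62, 7.42 and 5.97 in DKO. Its lowest value rests on 17 counts, for which the exact Poisson 95% interval runs from 9.9 to 27.2 and covers counting error only. Even so it had the smallest adjusted p of the 36 (0.000208 in edgeR) and a log2 fold change of 3.01 ± 0.36. Dock2, an activator of the GTPase Rac in leukocytes, rose by 2.64; it overlaps 4930403D09Rik on the other strand. The role group had 5 of 5 genes called against WT, with a median of 2.02, and 3 of 5 (Dock2, Lcp1 and Samsn1) in the interaction.

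Hpgds, the hematopoietic prostaglandin D synthase found in macrophages, mast cells and some T cells, was the only gene of its role, prostaglandin D synthesis. It was at 3.76, 6.31 and 5.98 CPM in WT, 3.90, 3.49 and 8.44 in Ing1 KO, 2.03, 5.88 and 6.95 in the libraries labelled Gadd45a KO and 28.7, 24.8 and 23.8 in DKO. The DKO libraries did not overlap the others, the log2 fold change against WT was 2.27 ± 0.44, and that of Ing1 KO against WT was -0.02 ± 0.46. The summed level of 11 mast cell and basophil genes did not rise with Hpgds in DKO. It was 3.54 CPM to 4.30 CPM in WT and 4.72 CPM to 12.2 CPM in Ing1 KO. Under the Gadd45a KO label it was 3.56 CPM to 4.06 CPM, and in DKO 2.21 CPM to 3.37 CPM. Of the 11 genes, 9 stayed under 1 CPM in every library, 4 of them at 0. Gata2 had the most counts of them in every library, so the sum says little about mast cells.

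Levels between genes can be compared only per length, here as CPM per kilobase of exon averaged over a group. On that scale Lyz2 ranked highest in every group, at 95.9 in WT, 123 in Ing1 KO, 96.7 under the Gadd45a KO label and 682 in DKO. C1qb and C1qa followed in each group, C1qb ahead in the groups other than DKO (33.9 against 30.4 in WT) and C1qa ahead in DKO (197 against 189). Those 2 neighbours differed by less than their spread between libraries in every group. C1qc, Ctss and Fcer1g took the next 3 places in all groups, in changing order, between 13.8 and 14.7 in WT and between 76.7 and 88.3 in DKO. Ikzf1 and Samsn1 ranked lowest in every group, at 0.367 and 0.176 in WT and 1.88 and 1.42 in DKO. The first 6 places and the last 2 were thus held by the same genes whether the list as a whole was low or high.

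Across the 12 libraries the 36 genes rose and fell nearly as 1 unit, also within groups where the genotype label is the same. The first WT library had the lowest value of its group in 36 of 36 genes, where 33.7% of all genes were lowest in that library. The first library labelled Gadd45a KO was lowest of its group in 36 of 36, against 37.7% of all genes. Its level was a median of 0.268 times the mean of the other 2 libraries of its group, from 0.215 (Clec4d) to 0.396 (Cd14), while for the first WT library the median was 0.612, from 0.398 (Msr1) to 0.746 (Trem2). The third Ing1 KO library was highest in 34 of 36 genes, against 35.7% of all genes, with a median of 1.78 times the mean of the other 2, from 1.01 (Cd14) to 3.21 (Aif1). In DKO the first library was highest in 34 of 36, against 34.8% of all genes, but only by a median of 1.18 times. The DKO libraries were the most alike in this respect, with a summed level 1.20 times higher in the highest than in the lowest. Beside this, the summed level of the 14 fibroblast genes was 62320 CPM to 67020 CPM in WT and 65480 CPM to 73000 CPM under the Gadd45a KO label.

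How far the genes kept their proportions was read from each gene's log2 CPM less the mean log2 CPM of the other 35 genes in the same library. The range of log2 CPM over the 12 libraries had a median of 3.96 over the genes (3.16 to 4.81), and the range of this relative level a median of 0.50, from 0.19 (Fcer1g) to 1.40 (Clec4d). Fcer1g was therefore the gene that tracked the others most closely. The difference between the DKO mean and the mean of the other 9 libraries on this scale was lowest for Coro1a (-0.48), Cd14 (-0.43), Lcp1 (-0.30), Spi1 (-0.27) and Pld4 (-0.25). It was highest for Clec4d (0.48), Lyz2 (0.40), Samsn1 (0.32), Fcgr3 (0.28) and Cd68 (0.20). Msr1 took a different course, with mean relative levels of 1.59 in WT, 0.88 in Ing1 KO, 1.18 under the Gadd45a KO label and 1.26 in DKO. These are descriptions of the same CPM values, and no test was made of them.

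**Figure D3:**
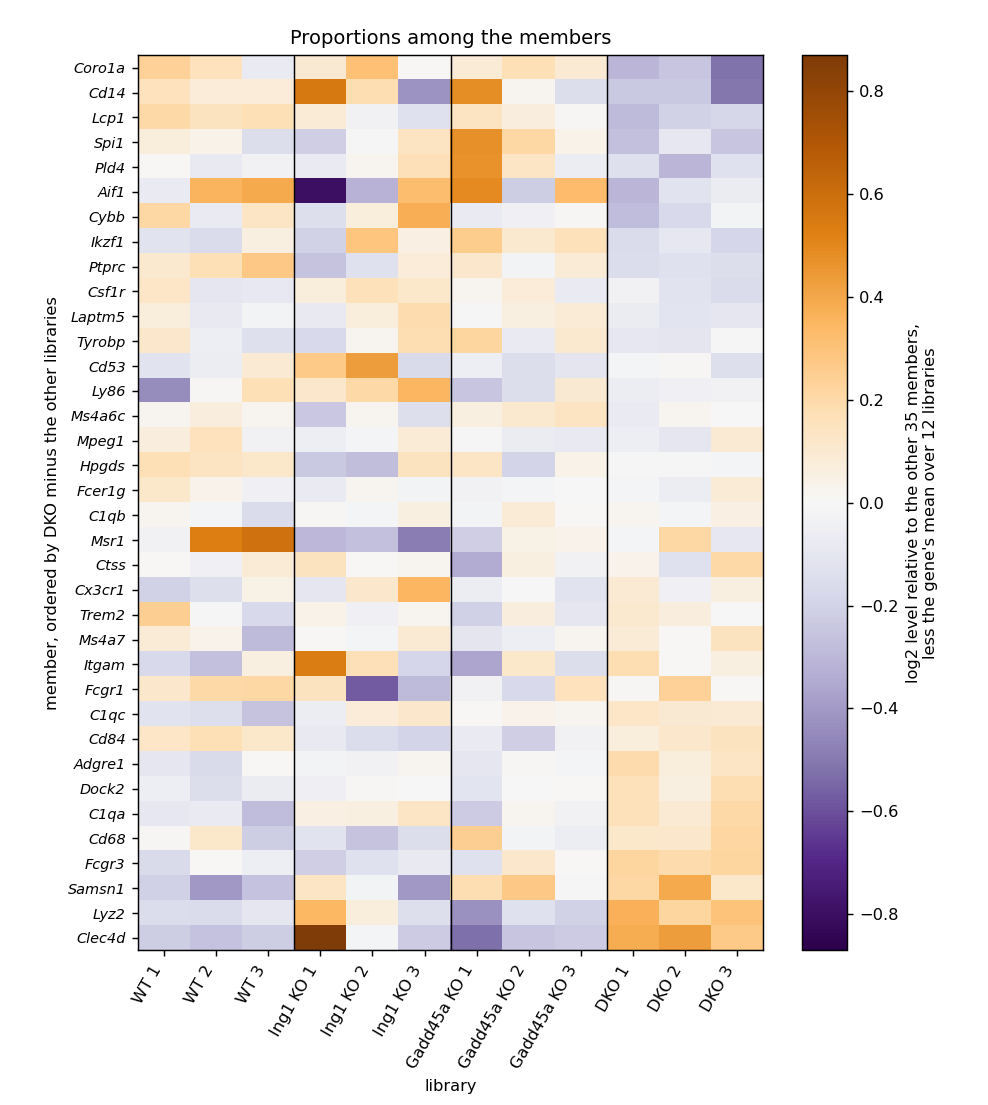
Relative level of each gene (rows, ordered from the lowest to the highest difference between DKO and the other libraries) in each library (columns, black lines between genotype labels): log2 CPM less the mean of the other 35 genes, centred on the gene's mean over the 12 libraries, purple low and brown high. Coro1a, Lcp1 and Pld4 near the top are low in all 3 DKO columns, Adgre1, Dock2 and Fcgr3 near the bottom are high there, and Msr1 is high in the second and the third WT columns.

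A wider list of macrophage genes showed the same direction. Of 67 further macrophage genes with an identifier, 63 could be tested, and in DKO against WT 58 were called higher, 0 lower and 5 not called, against 15.6% and 10.3% of all genes, with a median log2 fold change of 2.17. This list too was drawn up with earlier results of these data known, and its count is no independent support. Syk, the kinase downstream of TYROBP and FCER1G, had 8.55, 12 and 10.9 CPM in WT and 36.9, 34.7 and 31 in DKO and rose by 1.71 ± 0.17. Folr2, a folate receptor of resident macrophages, was at 1.58, 1.82 and 2.04 CPM in WT and 10.04, 7.39 and 7.16 in DKO (2.18 ± 0.25), and Hmox1, the heme-degrading oxygenase that other cells make too, rose by 0.74 ± 0.06. Among those not called were Itgax, H2-Ab1, H2-Eb1 and Gpnmb, with log2 fold changes of 1.16, -0.61, -1.09 and 0.24. Cd163, Ccr2, H2-Aa and Lyve1 did not pass the filter on low counts and stayed under 0.3 CPM in every library. In Ing1 KO against WT 0 of the 63 were called higher and 4 lower, against 12.1% and 11.4% of all genes, so neither share was above that of all genes. The 4 include the transcription factor Maf (-0.64), the receptor Tlr2 (-0.49) and H2-Ab1 (-1.43). Between the group labelled Gadd45a KO and WT edgeR called 0 of 63, with 2 at an unadjusted p under 0.05.

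Ligands of macrophage receptors were followed in the same libraries. Some of them, Ccl12 among these, act on receptors that are not among the 36 genes. Csf1, the growth factor read by CSF1R, was at 243, 236 and 242 CPM in WT, 235, 223 and 214 in Ing1 KO, 237, 241 and 234 in the libraries labelled Gadd45a KO and 220.2, 211 and 225 in DKO. Its log2 fold change in DKO against WT was -0.14 ± 0.04 (edgeR adjusted p = 0.032). Il34, its other ligand, was at 4.74, 3.48 and 3.61 CPM in WT, 4.60, 4.05 and 2.61 in Ing1 KO, 4.06, 4.29 and 3.34 under the Gadd45a KO label and 1.93, 1.36 and 1.64 in DKO (-1.26 ± 0.22 against WT). Both were therefore lower in DKO than in WT, Csf1 by a small amount. The DKO values of Csf1 overlapped those of Ing1 KO, while Il34 was lower in each DKO library than in any other library. Apoe, an apolipoprotein bound by TREM2 and made by macrophages as well as stromal cells, was at 44.5, 61.1 and 58.1 CPM in WT, 49.5, 51.8 and 112 in Ing1 KO, 30.6, 74.9 and 74.5 under the Gadd45a KO label and 413, 330.2 and 359.8 in DKO. It rose by 2.75 ± 0.42 and was lowest in the first library labelled Gadd45a KO, where each of the 36 genes also had its lowest value of the 12 libraries. The chemokine Ccl12 was at 1.06, 2.62 and 1.71 CPM in WT and 9.43, 12.6 and 8.40 in DKO and rose by 2.49 ± 0.43. Of the 10 ligand genes tested, 2 (Apoe and Ccl12) were called higher in DKO against WT, 3 (Csf1, Il34 and Lbp) lower and 5 not called, where 15.6% of all genes were called higher and 10.3% lower. In Ing1 KO against WT 1 of 10 was called, against 12.1% of all genes higher, namely Cx3cl1, the ligand of CX3CR1, at 0.49 ± 0.13, and in DKO it was lower than in Ing1 KO (-0.78 ± 0.13).

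**Figure D4:**
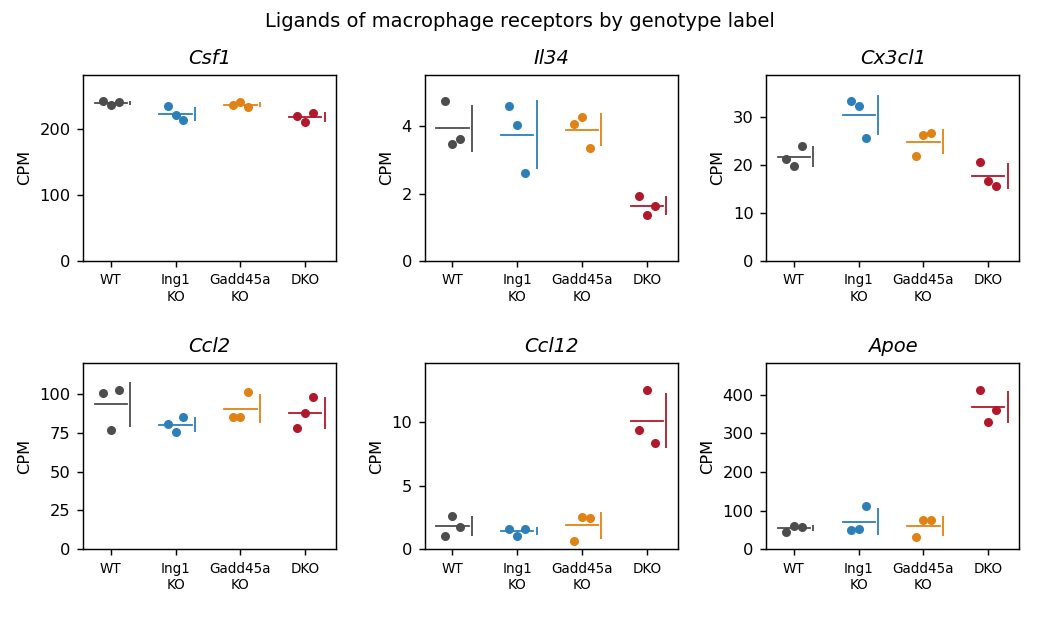
CPM of 6 ligands of macrophage receptors by genotype label, with 1 point per library, a horizontal bar at the group mean, a vertical bar of 1 SD either side (n = 3) and axes that start at 0. Apoe and Ccl12 are high in the 3 DKO libraries, Il34 is low there, and Csf1 differs little between groups.

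Markers of other cell types were read beside the list in DKO against WT, where 15.6% of all genes were called higher and 10.3% lower. Neutrophil genes summed to 0.653 CPM to 1.15 CPM in WT and 2.56 CPM to 4.35 CPM in DKO over 13 genes. Csf3r and Mmp8 were the 2 of them tested and both were called higher (1.76 and 2.48). Macrophages are known to express both as well, and the cells these RNAs came from were not tested. S100a9 was at 0 in every library, and S100a8, Ly6g, Mpo and Elane stayed under 0.1 CPM. T and NK cell genes summed to 0.891 CPM to 1.52 CPM over all libraries (12 genes, 0 of 1 tested called, the most abundant being Lck and Zap70), with Cd3e at 0 throughout. Of the B cell genes 2 were tested, and Ebf1, which fibroblasts express too, fell (-0.50). Hba-a1 was at 0 throughout, and of 3 erythroid and megakaryocyte genes tested Ppbp rose (1.17), though its call was lost without the first or second WT library or the first or second DKO library. Of 5 dendritic cell and osteoclast genes tested, Acp5 (0.70) and Mmp9 (1.25), both made by macrophages, rose and Ctsk fell (-0.64); the call for Mmp9 was lost without the second WT library or the first DKO library. Mast cell genes gave 1 of 4 lower in DKO, Kit (-1.47).

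Among the non-blood lists, 8 endothelial genes were tested in DKO against WT: Pecam1, which macrophages share, rose (2.44) with Kdr (0.88) and Vwf (0.96), and Tek fell (-2.26). Their summed level of 11 genes was 8.93 CPM to 9.53 CPM in WT and 9.92 CPM to 11.8 CPM in DKO. Of 14 fibroblast genes 0 rose and 3 fell in edgeR, namely Dcn (-1.26), Twist1 (-0.66) and Pdgfrb (-0.28), with 6 of 14 at an unadjusted p under 0.05. The remaining lists gave Cdh1 higher (2.54) of 2 epithelial genes tested, Pparg lower (-0.78) of 3 adipocyte genes, and Actc1 (-4.59) and Myh3 (-3.45) lower of 3 skeletal muscle genes. Of 6 Schwann cell and neuron genes, Tubb3 rose (0.64) and S100b fell (-1.73), but the call of Tubb3 was lost without 1 of 3 single libraries (the first or second WT library or the first DKO library) and that of S100b without any 1 of the 6. Outside the fibroblast genes, the highest summed level of any of these lists in DKO was 184 CPM (Schwann cell and neuron), against at least 3304 CPM for the 36 genes. The part of these other genes in the macrophage result was not tested, nor was the cell of origin of those shared with macrophages.

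**Figure D5:**
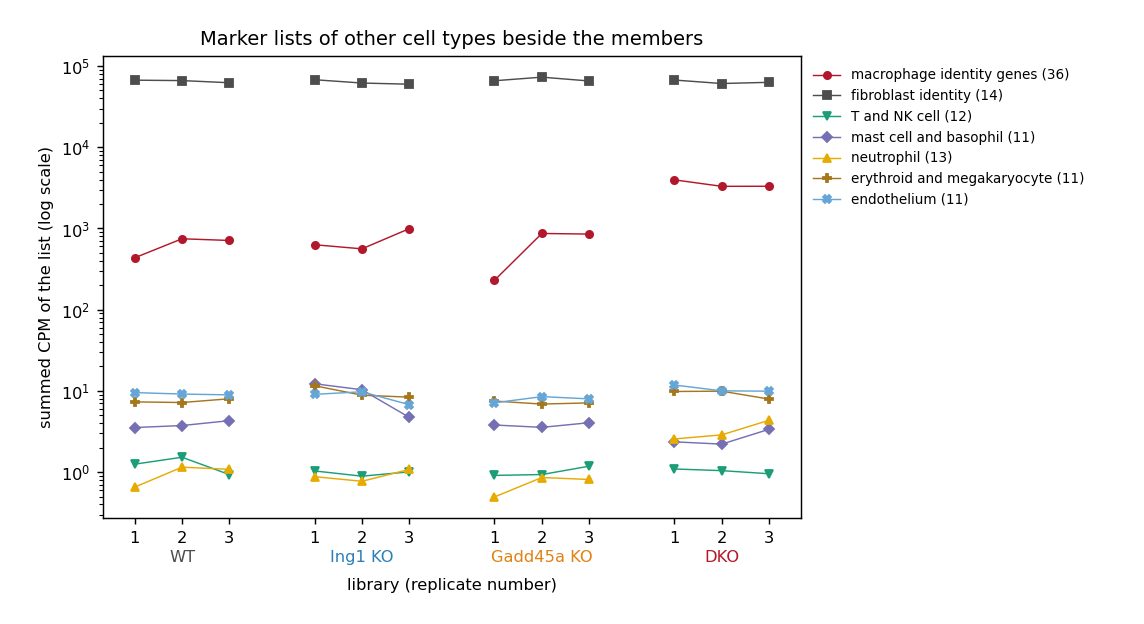
Summed CPM of 7 marker lists in each library, on a log axis, with libraries by replicate number within each genotype label and the number of genes in brackets; lines join libraries of 1 group and imply no order. The 36 macrophage genes sit between 230.1 CPM and 995 CPM outside DKO and between 3304 CPM and 3969 CPM in DKO. The fibroblast genes stay between 59740 CPM and 73000 CPM, and the other lists drawn stay under 13 CPM. Some lists are not drawn. Of these, dendritic cell and osteoclast genes summed to 210 CPM to 231 CPM in WT and 156 CPM to 179 CPM in DKO. In DKO Schwann cell and neuron genes reached 184 CPM, and epithelial genes 4.49 CPM.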

How the data were processed

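RNA was measured in 12 libraries of primary mouse embryonic fibroblasts, 3 for each of 4 genotype labels, made with the TruSeq RNA kit and sequenced as single reads from 1 pool, per the labels' protocols; that kit selects polyA RNA and does not mark strand. The authors deposited whole-number read counts per Ensembl gene, 1 table per library. The submitters' processing notes name TopHat2 2.0.9, Bowtie2 2.1.0, HTSeq 0.5.4, DESeq and the mouse build mm9 (NCBIM37); the annotation and the strand setting are not given in the sources used here. The 5 summary lines of each deposited table were left out, and reads not assigned to a gene were 23.9% to 24.9% of the counts. Gene counts came to 31493168 to 42852059 per library.

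The deposited counts were filtered with filterByExpr, scaled by TMM and fitted over all 12 libraries with edgeR 4.0.16 in R 4.3.3 (quasi-likelihood test, robust, 8 residual degrees of freedom), with Benjamini-Hochberg adjustment over 15098 genes and calls at an adjusted p under 0.05. The script was tested on simulated data. A standard error is the log2 fold change divided by the square root of the test's F. CPM is the count over the TMM-scaled library size, and log2 CPM has a prior count of 2. Exon lengths, overlaps, symbols and promoters came from the reference tables. DESeq2 1.42.0, RLE factors, no filter, only the groups compared, the replicate number as a block and leaving out each library were the alternatives. Same-numbered WT and Gadd45a KO libraries deviated together (correlations of 0.105, 0.129 and 0.336, each over the 0.1 set for pairing), while differently numbered libraries of these groups ranged from -0.240 to 0.132, so for numbers 2 and 3 the number does not tell the pairs apart; the block within these groups alone was an alternative chosen after seeing the data. No batch is given in the labels.

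The members and lists were chosen with earlier results of these data known. Members named with values in every library are the 2 most abundant of each role (all members of roles with 3 or fewer), up to 3 called with the smallest adjusted p in each comparison, and the 3 largest and 3 smallest changes in DKO against WT; from each other list up to 3 called genes are named, or the 2 most abundant where none is called. Other genes named were chosen after their values were seen, and some list genes are not reported here.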

Additional observations from a re-analysis of the deposited data

Results flagged for a closer look

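By edgeR's interaction test, the change in DKO was called higher than the sum of the single mutant changes for 20 of the 36 genes. Of all genes, 10.4% were called higher and 7.4% lower. The term was above 0 for 36 of 36 genes, and the 16 not called had adjusted p between 0.0542 and 0.0923 in edgeR. The interaction log2 fold change was 2.98 for Msr1, 2.66 for Cd84, 2.66 for Fcgr1, 2.46 for Lyz2, 2.45 for Cd68, 2.41 for Fcgr3, 2.38 for Hpgds and 2.36 for Clec4d. It was 2.25 for Mpeg1, 2.25 for Trem2, 2.24 for Ptprc, 2.23 for Fcer1g, 2.23 for Adgre1, 2.23 for Dock2 and 2.19 for Ms4a6c. It was 2.16 for Ms4a7, 2.12 for Samsn1, 2.1 for Lcp1, 2.09 for Cd53 and 1.88 for Cd14. The summed level of the 36 genes was 230.1 CPM in the first library labelled Gadd45a KO and 853 CPM or more in the other 2, and the count of 20 was 29 without that first library and 0 without the second WT library.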

How the results depend on the processing

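In DKO against WT, 34 to 36 of the 36 genes were called higher over all settings run, and no alternative changed a direction there, in DKO against Ing1 KO, in DKO against the group labelled Gadd45a KO or in the interaction. Over the log2 fold changes of single genes in DKO against WT, 658 alternatives kept their call and direction and 22 lost the call. These cover the 36 genes together with called genes of the other lists. For the 36 genes alone, in DKO against Ing1 KO 388 alternatives kept the call and 8 lost it, with 29 to 36 genes called when 1 library was left out. Against the group labelled Gadd45a KO 393 kept it and 3 lost it. Single mutant groups against WT gave 0 of 36 under every setting run. The Gadd45a KO label against WT turned sign for Msr1, from -0.35 to 0.066 without the first library of that label, with a range of -0.68 to 0.066 over the single libraries left out.

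The interaction count of 20 was 35 with DESeq2, 6 with no filter on low counts, 26 with the replicate block, and 0 to 29 when 1 library was left out; the cause was not tested. Over single genes of the interaction 383 alternatives kept the call, 151 lost it and 42 gained it. The replicate block changed no call of the 36 genes elsewhere. Same-numbered libraries of the other pairs of groups had correlations of -0.177 to 0.206. None of these pairs of groups had every correlation over 0.1, so they were not treated as paired. The labels do not say whether the replicate numbers are paired.

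Counts over all genes moved by more than 1.5 times in these cases. Ing1 KO against WT went from 1828 higher and 1715 lower to 1092 and 1021 without the second WT library and 974 and 884 without the second Ing1 KO library. The Gadd45a KO label against WT went from 1 higher and 0 lower to 11 and 16 with DESeq2, 12 and 1 without the first WT library, 6 and 7 with the replicate block within these groups, and 0 higher with only the groups compared. DKO against Ing1 KO went from 2249 and 1491 to 1473 and 776 without the second Ing1 KO library, with 872 lower without the second DKO library. DKO against the Gadd45a KO label went from 1601 lower to 983 without the first library of that label and 1060 without the first DKO library. The interaction went from 1569 higher and 1118 lower to as few as 804 and 496 without the second WT library. With no TMM scaling, 1 gene in place of 0 was highest in the third DKO library. Each of the 36 genes had at least 10 counts in every library.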
